A study of Zea mays subsp. mexicana with 6 samples.

Results

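WRKY proteins are plant transcription factors that carry a zinc finger and bind W-box elements in the promoters of defence and stress genes. The 5 WRKY unigenes described here are those that the study of these libraries named by identifier as members of the family. They are c38115_g1, c56800_g1, c56800_g2, c63357_g2 and c59902_g1, of 184280 unigenes in the deposited table. A unigene is a gene-level cluster of assembled transcripts, and its name gives the assembly component (c) and the gene within it (g), so c56800_g1 and c56800_g2 came from 1 component. The 5 unigenes lay in 4 components.

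The family is known in several plants for roles in immunity, senescence and the response to cold and water deficit. Many WRKY genes are themselves induced within hours of a stimulus. WRKY proteins act downstream of mitogen-activated protein (MAP) kinase cascades, which phosphorylate some of them in Arabidopsis, and some bind VQ motif proteins, small cofactors named after a valine and glutamine pair. Annotations and sequence-based names below are those of the nearest maize or Arabidopsis protein in the supplement of the study.

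The plants were teosinte, Zea mays subsp. mexicana, cultivar 8493, sampled as seedlings 13 days after germination. The 6 libraries fell into 3 conditions with 2 libraries each: control seedlings in soil at 25°C without stress, cold seedlings held at 4°C for 12 h, and drought seedlings kept for 3 h in a Hoagland solution containing 20% PEG2000, an osmotic agent. Each library pooled root, stem and leaf of several seedlings, so a change within cells and a change in the share of an organ cannot be told apart. The stresses also differed in length, and kind of stress and duration cannot be told apart. PEG and the Hoagland solution that held it were given together in the drought group, so their parts cannot be told apart either.

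Values are FPKM, which divide the fragments of a unigene by its length and by the mapped fragments of the library and thus allow levels to be compared between unigenes. The sum of FPKM per library lay between 967046 and 993409, and 42849 to 55928 unigenes reached an FPKM of 1. The study states the reads of each library, but the reads behind each unigene's FPKM are not part of the deposited values, so no counting interval is given. Fold changes are log2 differences of FPKM + 1 from 1 limma fit of the 6 libraries, with p adjusted after Benjamini and Hochberg over the 38768 unigenes whose FPKM averaged 1 or more. All 5 WRKY unigenes passed that filter. A unigene counted as a differentially expressed gene (DEG) when its log2 fold change reached 2 in either direction with an adjusted p under 0.005. With 2 libraries against 2, an exact permutation test of a single unigene cannot give a two-sided p under 0.333, so the p-values below rest on the spread shared over unigenes in limma.

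All 5 WRKY unigenes rose in the cold and all 5 rose in the drought, at an adjusted p under 0.05 in limma. In the cold, 4 of the 5 were DEGs, where 2.16% of all tested unigenes were DEGs of higher expression. For drought 1 of the 5, c56800_g2, was a DEG, where 0.725% of all tested unigenes were. The response to cold was the larger one for c38115_g1, c56800_g1 and c63357_g2 by the test of the difference, while for c56800_g2 no difference between the stresses was detected. The study named these unigenes as higher in the cold, and c56800_g1 and c56800_g2 as higher in both stresses, on these same libraries. The counts against the control are therefore descriptions and not independent evidence of direction. Drought against cold uses the same cold libraries, so it is not independent of that choice either.

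**Figure D1:**
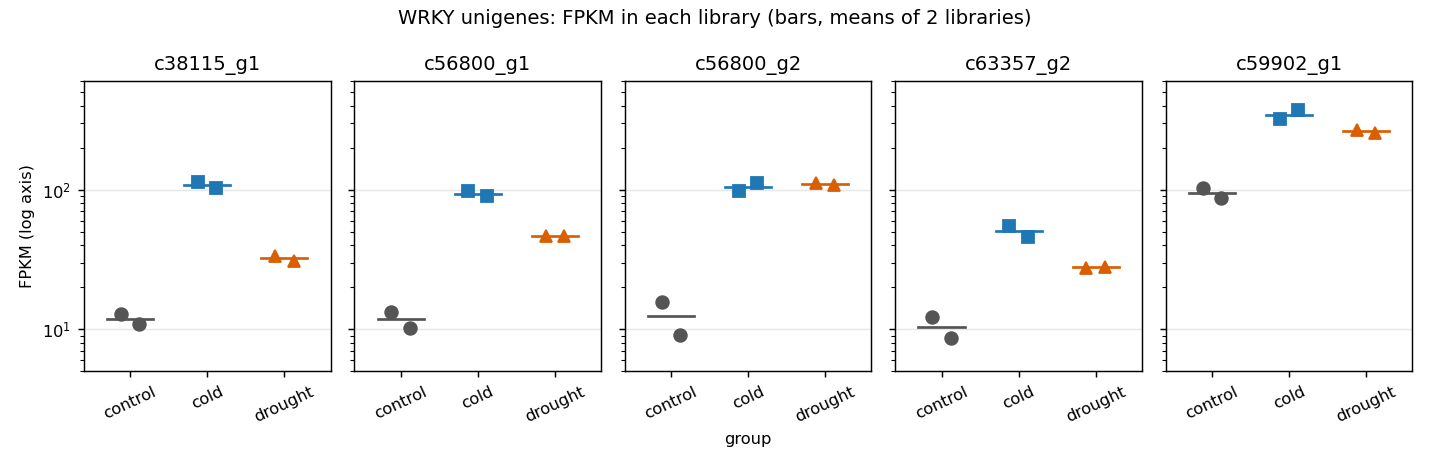
FPKM (log axis) of each WRKY unigene in the 2 control, 2 cold and 2 drought libraries, with bars at the group means. In each panel both cold and both drought libraries lie above both control libraries, and c56800_g2 alone has drought libraries level with the cold ones, at 112.23 and 108.9 against 97.53 and 111.53.

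c38115_g1 was annotated as maize WRKY74. Its control libraries stood at 12.93 and 10.95 FPKM, its cold libraries at 114.13 and 103.21, and its drought libraries at 33.76 and 30.67. The 3 groups did not overlap, with the drought libraries between the other groups. The means were 11.9 ± 1.40, 109 ± 7.72 and 32.2 ± 2.18 (SD, n = 2 each), which put the cold mean 9.10-fold above the control mean and the drought mean 2.70-fold above it. The fitted change was 3.09 (SE 0.13, limma adjusted p = 0.000355) in the cold, the 241st largest increase of the 38768 unigenes tested. The change in the drought was 1.36 (SE 0.13, limma adjusted p = 0.00445), under the fold threshold. c38115_g1 had the lowest drought response relative to cold of the 5 unigenes. Its rise in FPKM over the control was 20.3 in the drought and 96.7 in the cold, so the first was 21.0% of the second. The drought level was lower than the cold level by a limma log2 difference of -1.72 (SE 0.13, 95% interval -2.04 to -1.41, adjusted p = 0.000816).

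c56800_g1 was annotated to the same maize protein, WRKY74, in part of its transcripts and to a probable WRKY53 in others. The nearest Arabidopsis proteins were WRKY53, a regulator of leaf senescence, and WRKY46. Control libraries stood at 13.39 and 10.16 FPKM, the cold libraries at 97.17 and 90.06, and the drought libraries at 46.75 and 46.57. As for c38115_g1, the drought libraries lay apart from and between the other groups. The means were 11.8 ± 2.28, 93.6 ± 5.03 and 46.7 ± 0.127 (SD, n = 2 each), or ratios to the control of 7.95 for cold and 3.96 for drought. The fitted change was 2.90 (SE 0.15, limma adjusted p = 0.000541) in the cold. It was 1.91 (SE 0.15, limma adjusted p = 0.00230) in the drought, where it passed the p threshold and narrowly missed the fold threshold. With 0.1 added to FPKM in place of 1 the drought change was 1.99. The study, with a count test, named c56800_g1 as higher in the drought, so the call here departs from it. c56800_g1 was lower in the drought than in the cold by -0.99 (SE 0.15, 95% interval -1.35 to -0.63, limma adjusted p = 0.00527).

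c56800_g2, the other unigene of that component, was annotated as an uncharacterized maize protein of the WRKY DNA-binding superfamily, again nearest to Arabidopsis WRKY53. It stood at 15.67 and 9.06 FPKM without stress, 97.53 and 111.53 after cold, and 112.23 and 108.9 after drought. The libraries of both stresses stood well above the controls and overlapped each other. The means were 12.4 ± 4.67, 105 ± 9.90 and 111 ± 2.35 (SD, n = 2 each), which are ratios to the control of 8.45 for cold and 8.94 for drought. The fitted change was 3.02 (SE 0.24, limma adjusted p = 0.00109) for cold and 3.11 (SE 0.24, limma adjusted p = 0.00231) for drought, the 175th largest increase of that comparison. Drought and cold differed by 0.08 (SE 0.24, limma adjusted p = 0.808). The 95% interval of that difference, -0.50 to 0.67 on the log2 scale, leaves room for a moderate difference in either direction. The control libraries of c56800_g2 were also the least alike among the 5 unigenes, with 1.73-fold between them.

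c63357_g2 was annotated as maize WRKY40 or WRKY71, depending on the transcript, and was nearest to Arabidopsis WRKY18, which acts with WRKY40 in abscisic acid signalling and immunity in that species. The control libraries held an FPKM of 12.2 and 8.7, the cold libraries 55.07 and 46.13, and the drought libraries 27.54 and 28.06. The 3 groups were again separate, with drought in the middle. The means were 10.5 ± 2.47, 50.6 ± 6.32 and 27.8 ± 0.368 (SD, n = 2 each), 4.84-fold (cold) and 2.66-fold (drought) above the control. The change in the cold was 2.18 (SE 0.18, limma adjusted p = 0.00122), the smallest of the 4 DEGs and close to the fold threshold of 2. In the drought it was 1.35 (SE 0.18, limma adjusted p = 0.0116), past neither threshold of a DEG. The drought level was lower than the cold level by -0.84 (SE 0.18, 95% interval -1.28 to -0.39, limma adjusted p = 0.0165).

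c59902_g1 was the most abundant of the 5 in every library. Its transcripts matched several maize WRKY proteins, among them WRKY53, WRKY70 and WRKY34, and its nearest Arabidopsis protein was WRKY33, a regulator of defence against necrotrophic fungi and a substrate of MAP kinases there. Because 1 unigene drew on several maize proteins, its FPKM may hold reads of more than 1 gene. Control libraries stood at 103.43 and 86.86 FPKM, the cold libraries at 318.51 and 369.96, and the drought libraries at 267.92 and 256.03. Both stresses lay above the control and the drought libraries lay below the cold ones. The means were 95.1 ± 11.7, 344 ± 36.4 and 262 ± 8.41 (SD, n = 2 each), or 3.62-fold and 2.75-fold above the control. The change in the cold was 1.85 (SE 0.13, limma adjusted p = 0.000896), so c59902_g1 passed the p threshold but missed the fold threshold that the other 4 reached. Under median-of-ratios scaling the change was 2.07 (limma adjusted p = 0.000803), and all 5 unigenes were DEGs in the cold. In the drought it was 1.46 (SE 0.13, limma adjusted p = 0.00392). Drought against cold gave -0.39 (SE 0.13, 95% interval -0.71 to -0.06), with a limma adjusted p of 0.0639 that missed 0.05.

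**Figure D2:**
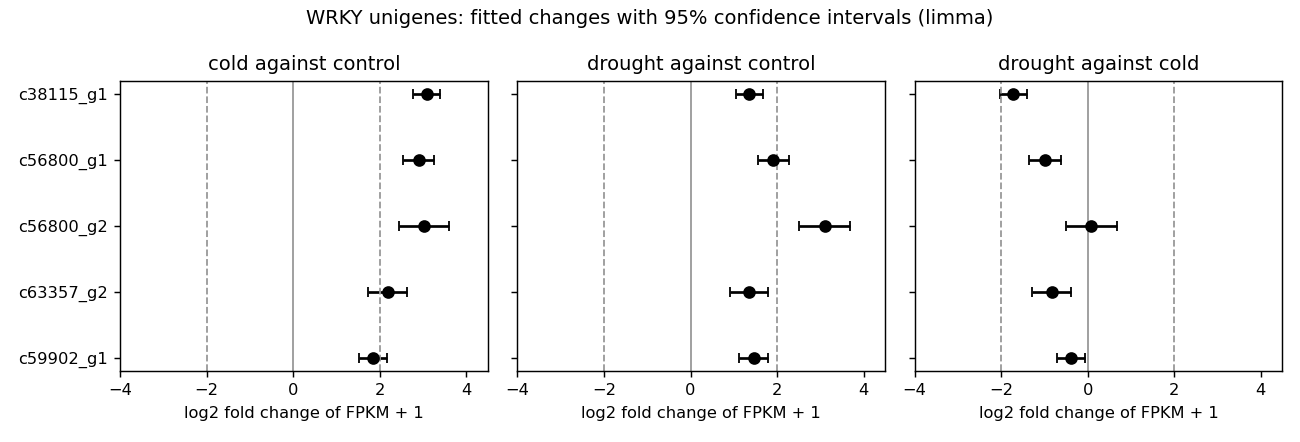
Log2 fold changes of FPKM + 1 for the 5 WRKY unigenes in the 3 comparisons, as points with 95% confidence intervals from limma and dashed lines at the fold threshold of 2 in either direction. In the cold the points range from 1.85 to 3.09, in the drought c56800_g2 at 3.11 stands above the other 4, and in drought against cold c38115_g1 at -1.72 lies lowest.

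The level without stress separated 1 of the 5 unigenes from the rest. c59902_g1, at the 96.1st percentile of the tested unigenes in the control, was set apart, while the other 4 had control means of 10.5 to 12.4 FPKM and overlapping libraries. In the cold the order was c59902_g1, c38115_g1, c56800_g2, c56800_g1 and c63357_g2, and c38115_g1 and c56800_g2 overlapped. The lower cold library of c56800_g2, at 97.53, lay just above the higher one of c56800_g1, at 97.17, so these neighbours were barely separate. No test between unigenes was run. In the drought all 5 were separate and the order changed, to c59902_g1, c56800_g2, c56800_g1, c38115_g1 and c63357_g2. c38115_g1 thus lay next to the top in the cold and next to last in the drought. Summed over the 5 unigenes, FPKM came to 142 ± 22.5 without stress, 702 ± 27.2 after cold and 479 ± 12.7 after drought (SD, n = 2 each). c59902_g1 made up 67.4%, 49.0% and 54.7% of these sums.

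The share of the cold response that was also seen in the drought varied widely among the 5. The rise of mean FPKM over the control in the drought was 21.0% of the rise in the cold for c38115_g1, 42.6% for c56800_g1, 43.2% for c63357_g2, 67.0% for c59902_g1 and 107% for c56800_g2. These ratios share the control libraries and are given as a description. Drought against cold does not use the control libraries, but it uses the cold libraries on which the study chose these unigenes. In it 3 of the 5 unigenes were lower at an adjusted p under 0.05 in limma, where 14.2% of all tested unigenes were. None was a DEG (1.81% of all tested unigenes were DEGs of lower expression).

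Both libraries of the stress lay above both control libraries for all 5 WRKY unigenes under both stresses, where 28.1% and 27.8% of the tested unigenes did so. Both drought libraries lay below both cold libraries for 4 of the 5, where 27.2% of the tested unigenes did. At an adjusted p under 0.05 with any fold, 14.8% of the tested unigenes were higher in the cold and 5.69% after drought. The median log2 change of the 5 was 2.90 for cold and 1.46 for drought, and that of all tested unigenes was -0.18 and 0.01. Median-of-ratios scaling moved the median of all unigenes in the cold from -0.18 to 0.0044, and the DEGs from 838 higher and 432 lower to 1075 and 299. For drought against cold the 726 higher and 701 lower DEGs became 529 and 942. The WRKY unigenes rose against the control under every scaling tried.

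**Figure D3:**
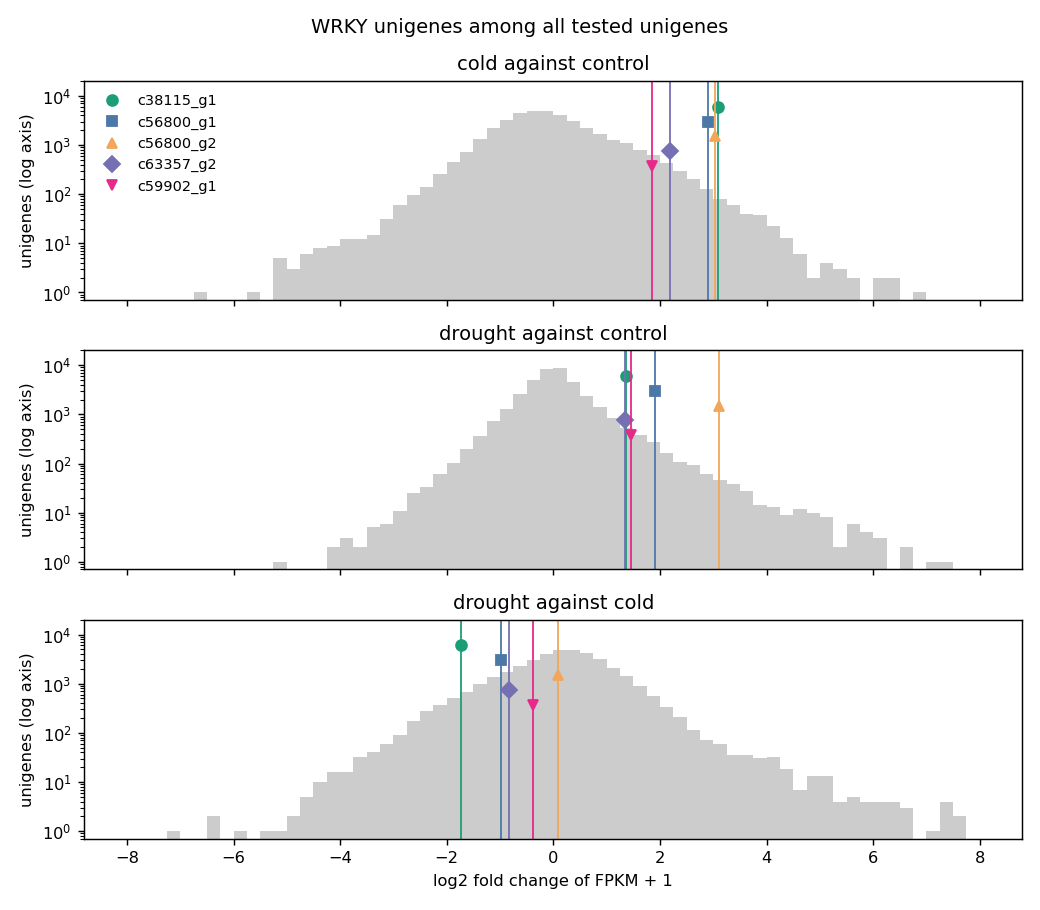
Number of tested unigenes (log axis, bins of 0.25) by log2 fold change of FPKM + 1 in the 3 comparisons, with vertical lines and symbols for the 5 WRKY unigenes, whose symbols are set at different heights only to keep them apart. In the cold the lines lie to the right of the bulk, between 1.85 and 3.09, and in the drought 4 of them lie between 1.35 and 1.91 with c56800_g2 at 3.11.

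The division of component c56800 between its 2 unigenes differed in the drought. c56800_g1 took 46.1% and 52.9% of their summed FPKM without stress, 49.9% and 44.7% after cold, and 29.4% and 30.0% after drought. The drought libraries lay below all 4 others, which overlapped. The mean shares were 49.5 ± 4.80%, 47.3 ± 3.70% and 29.7 ± 0.388% (SD, n = 2 each), and c56800_g2 held 2.40 and 2.34 times the FPKM of c56800_g1 in the drought libraries. The summed FPKM was 24.1 ± 6.96 without stress, 198 ± 4.87 after cold and 157 ± 2.48 after drought. Trinity places allelic, paralogous and alternatively spliced transcripts in 1 component, and how reads shared by both unigenes were divided was not tested.

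**Figure D4:**
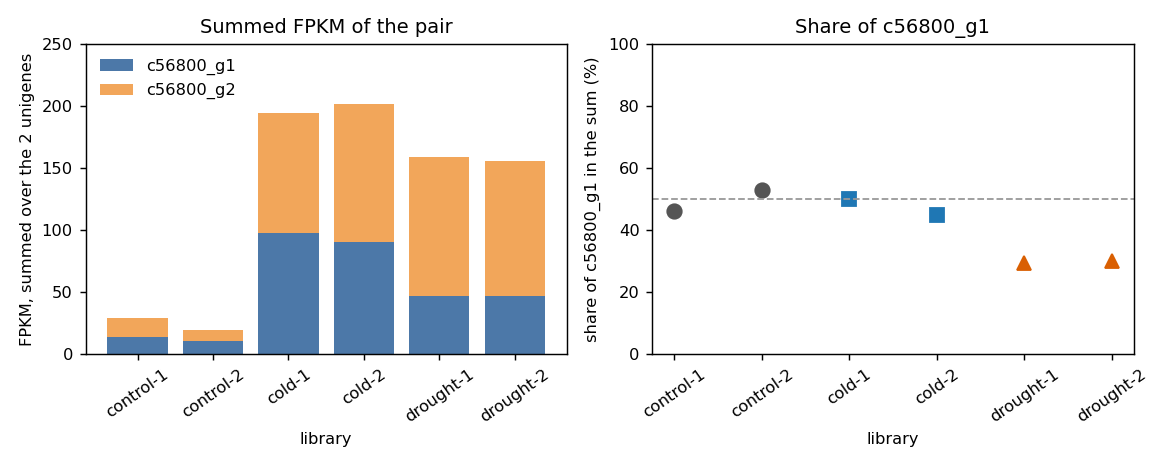
Left, FPKM of c56800_g1 and c56800_g2 stacked for each of the 6 libraries. Right, the share of c56800_g1 in that sum in percent, with a dashed line at 50, which lies between 44.7 and 52.9 in the control and cold libraries and at 29.4 and 30.0 in the drought libraries.

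Since c38115_g1 and c56800_g1 share an annotation and c56800_g1 and c56800_g2 share a component, their FPKM was also summed before the fit, a choice made after the values were seen. The sum of c56800_g1 and c56800_g2 rose by 3.01 in the cold (limma adjusted p = 0.000701) and by 2.68 in the drought (limma adjusted p = 0.00184), past both thresholds each time. Drought against cold gave -0.33 for this sum (limma adjusted p = 0.217). The sum of c38115_g1 and c56800_g1 rose by 3.05 and 1.70 and was lower in the drought than in the cold by -1.35 (limma adjusted p = 0.00170). Component c56800 as a whole was therefore a DEG in both stresses, whereas c56800_g1 alone passed the fold threshold in the cold and not in the drought.

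Components of the WRKY unigenes held 5 further unigenes, 3 in c63357 and the rest in c59902. c63357_g1 stood at 2.45 and 3.27 FPKM without stress, 4.13 and 5.25 after cold, and 11.96 and 10.33 after drought. It was highest in the drought, with a change of 1.66 (limma adjusted p = 0.00915) against the control, and was higher there than in the cold (95% interval of the log2 difference 0.60 to 1.60, limma adjusted p = 0.0105). This order is the opposite of that of c63357_g2. c63357_g4 stood at 0.5 and 0.33 without stress, 3.29 and 3.43 after cold, and 0.46 and 0.12 after drought. It rose in the cold by 1.63 (limma adjusted p = 0.00983), and its drought value was -0.14 (limma adjusted p = 0.837). The difference between the stresses was -1.77 (limma adjusted p = 0.00720). c59902_g2 stood at 2.58 and 4.41 without stress, 0 and 1.19 after cold, and 2.26 and 0 after drought, with a change of -1.57 in the cold (limma adjusted p = 0.116). c63357_g3 and c59902_g3 lay under the filter, at 0.48 to 1.01 and 0.27 to 1 FPKM. Annotations of these 5 are not given here.

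Cold DEG lists that the study drew from these libraries held 4 other unigenes annotated as WRKY, so that their rise in the cold is no independent evidence. The filter left 3 of them, and all 3 were higher in the cold at an adjusted p under 0.05, with 1 DEG. c54015_g1, annotated as WRKY11, a negative regulator of basal immunity in Arabidopsis, stood at 0.05 and 0.1 FPKM without stress, 6.72 and 11.66 after cold, and 0.35 and 0.21 after drought. It was the DEG, with a change of 3.20 (limma adjusted p = 0.00196). c49780_g2, annotated as WRKY40, stood at 1.1 and 2.01 without stress, 11.44 and 8.8 after cold, and 7.31 and 3.83 after drought. It changed by 2.13 in the cold (limma adjusted p = 0.00653) and by 1.33 in the drought (limma adjusted p = 0.0711). c54583_g2, annotated as WRKY35 or WRKY14, stood at 2.39 and 1.93, then 9.71 and 11.49, then 1.58 and 1.39, a change of 1.88 in the cold (limma adjusted p = 0.00232). These low levels made the changes depend on the 1 added to FPKM. With 0.1 added instead, c54583_g2 changed by 2.25 (limma adjusted p = 0.00310), past both DEG thresholds. c54015_g1 then changed by 5.69, and c49780_g2 by 2.67, short of the p threshold (limma adjusted p = 0.00756). In the drought none of these 3 passed an adjusted p of 0.05, which all 5 unigenes named by the study did. The study had named c56800_g1 and c56800_g2 for a rise in both stresses. The drought change of c49780_g2 had a larger SE, 0.33, and was close to those of c38115_g1 (1.36) and c63357_g2 (1.35). Those of c54015_g1 and c54583_g2 were 0.25 and -0.34. Drought against cold was past both DEG thresholds for c54015_g1 at -2.95 and for c54583_g2 at -2.22. c48947_g1, annotated as WRKY72, lay under the filter at 0.23 and 0.28 without stress, 2.28 and 2.14 after cold, and 0.33 and 0.35 after drought.

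The homology and gene ontology annotation gave 3 more WRKY unigenes, which were not chosen for a change. c48889_g1, nearest to Arabidopsis WRKY44, a regulator of trichome and seed coat development, stood at 2.89 and 3.38 FPKM without stress, 1.38 and 1.26 after cold, and 3.13 and 3.51 after drought. It fell by 0.83 on the log2 scale in the cold (limma adjusted p = 0.0277), against the direction of the 5, and its change in the drought was 0.06 (limma adjusted p = 0.905). c103582_g1 and c141760_g1 lay under the filter, at 0 to 1 and 0 to 2.05 FPKM. The annotation tables are held in part, so these unigenes are not the whole family.

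VQ motif unigenes, known partners of WRKY proteins, were taken from the same lists of cold DEGs and numbered 5. All 5 were higher in the cold at an adjusted p under 0.05, where 14.8% of all tested unigenes were. Of the 5, 4 were DEGs, where 2.16% of all tested unigenes were DEGs of higher expression, and the median change was 2.19. Because the lists were drawn for the cold on these libraries, this rise is no independent evidence. c59889_g1 changed most, from 2.15 and 0.95 FPKM without stress to 13.69 and 16.41 after cold, with 5.48 and 2.94 after drought. c54676_g1, the most abundant, had a mixed annotation, with dihydroneopterin aldolase, a folate synthesis enzyme, beside the VQ motif. It went from 33.53 and 36.11 to 167.13 and 106.98 after cold, and stood at 53.64 and 45.5 after drought. c50909_g1, c50909_g3 and c51832_g1 lay between these in their change, and c50909_g1 and c50909_g3 shared a component. In the drought none of the 5 passed an adjusted p of 0.05, with a median change of 0.57. All 5 were lower in the drought than in the cold at an adjusted p under 0.05, where 14.2% of all tested unigenes were. The median difference between drought and cold was -1.59 for the VQ unigenes and -0.84 for the 5 WRKY unigenes. The lists were chosen in different ways, the VQ unigenes from cold lists and c56800_g1 and c56800_g2 for both stresses. The medians are therefore a description and not a comparison of the families.

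MAP kinase cascade unigenes from the cold tables numbered 12, of which 10 were tested. All 10 were higher in the cold at an adjusted p under 0.05, where 14.8% of all tested unigenes were, and 6 were DEGs, where 2.16% were. They came from cold tables, so this rise is no independent evidence. Changes ran from 1.58 for c49416_g2, a YODA-like MAP kinase kinase kinase, to 3.38 for c59381_g1, a MAP kinase. Another of the 6 DEGs, c56807_g1, shared a maize locus annotation with c59381_g1, so the DEGs may count the same gene more than once. In the drought 7 of the 10 were higher at an adjusted p under 0.05, where 5.69% of all tested unigenes were, and none was a DEG. The drought changes ran from -0.33 for c59793_g1 to 3.14 for c57367_g5. c57367_g5 (limma adjusted p = 0.00947) and c50719_g1, at 2.31 (limma adjusted p = 0.00925), passed the fold threshold and missed the p threshold, and both are named after their values were seen. Of 12 further MAP kinase unigenes taken from other annotations, 4 were tested, and 2 of these were higher in the cold at an adjusted p under 0.05, with changes from 0.20 for c63758_g4 to 0.82 for c58496_g3 and no DEG. None of these 4 passed that threshold in the drought.

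**Figure D5:**
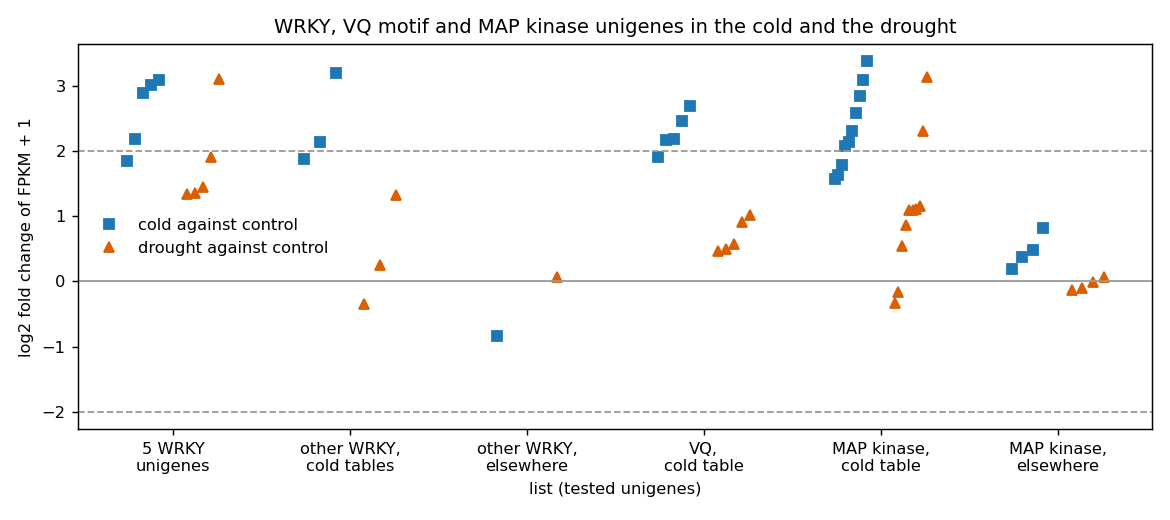
Log2 fold changes of FPKM + 1 in the cold (squares) and the drought (triangles) for each tested unigene of the 5 WRKY unigenes, the other WRKY unigenes, the VQ motif unigenes and the MAP kinase unigenes, sorted within each list, with dashed lines at the fold threshold of 2 in either direction. The lists from cold tables lie at 1.58 or higher in the cold because the study chose them there, and the drought values of the VQ unigenes lie between 0.48 and 1.03.

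For each WRKY unigene the 2 tested unigenes with the most similar pattern were found by the Pearson correlation of log2(FPKM + 1) over the 6 libraries, which fall into 3 groups and share their controls. They were c49314_g1 and c61261_g1 for c38115_g1 (r = 0.999 for both), c43235_g1 and c59128_g1 for c63357_g2 (both 0.998), and c57138_g3 and c54694_g1 for c59902_g1 (0.999 and 0.997). For c56800_g1 they were c64306_g1 and c24764_g1 (both 0.998), and for c56800_g2 they were c61291_g2 and c64553_g1 (0.999 and 0.998). c61291_g2, annotated as a touch-induced calmodulin-related protein, stood at 8.07 and 4.39 FPKM without stress, 73.91 and 82.75 after cold, and 91.7 and 79.57 after drought. Among the WRKY unigenes themselves r ranged from 0.812 between c38115_g1 and c56800_g2 to 0.996 between c63357_g2 and c56800_g1. c56800_g1 was thus less like the other unigene of its component (r = 0.931) than like c63357_g2, which has another annotation.

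The control libraries differed from each other in the same direction for all 5 WRKY unigenes, with control-1 1.18 to 1.73 times control-2. Organ markers were summed in each library because organs were pooled. The 5 leaf markers summed to 2479 and 2343 FPKM without stress, 1838 and 2406 after cold, and 1649 and 1674 after drought. In the drought 2 of the 4 leaf markers tested, both Rubisco activase, were lower and 1, phosphoenolpyruvate carboxylase, was higher at an adjusted p under 0.05, and in the cold none differed. The 5 root markers summed to 32.6 and 67.6 without stress, 47.0 and 84.0 after cold, and 30.3 and 52.7 after drought, with overlapping groups. In each list 1 marker was at 0 in some libraries, c99788_g1 among the leaf and c39734_g1 among the root markers. The part of organ shares in the WRKY changes was not tested.

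Leaving out any 1 of the 6 libraries left no DEG among the 5 in the cold or in the drought, and no unigene of the whole table was then a DEG against the control. All 5 kept an adjusted p under 0.05 in the cold in all 17 settings run, the highest being 0.0184 for c63357_g2. In the drought c56800_g1 and c56800_g2 did so in 17 of 17. The settings that changed only the fold threshold or the p threshold kept the main fit, so their adjusted p could not differ from it. Without drought replicate 1 the adjusted p in the drought was 0.0567 for c38115_g1 and 0.0599 for c59902_g1. For c63357_g2 it was 0.0550 without control replicate 2, 0.0950 and 0.0864 without drought replicate 1 or 2, and 0.0966 without a filter on low values. The difference between drought and cold held at an adjusted p under 0.05 in 17 of 17 settings for c38115_g1 and c56800_g1. For c63357_g2 it was lost without either cold replicate (limma adjusted p = 0.0923 and 0.0522), without either drought replicate (0.0795 and 0.0807) and without the filter (0.0801). For c59902_g1 it was gained under median-of-ratios scaling, at -0.63 (limma adjusted p = 0.0207).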

How the data were processed

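The 6 libraries came from poly(A) RNA sequenced as read pairs on the Illumina HiSeq platform. The authors assembled all reads with Trinity, aligned each library to the assembly with Bowtie 1.1.1, estimated abundance with RSEM and deposited FPKM of 184280 unigenes with 2 decimals. FPKM carries no scaling between libraries beyond the total. No genome build applies. Columns with the authors' own comparisons, such as those in the supplement, were not used. The supplement, held in part, gave annotations and the membership of the cold lists, which the authors' comparisons had set, and no values.

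Here log2(FPKM + 1) was fitted in limma 3.58.1 (R 4.3.3) with an empirical Bayes mean-variance trend (3 residual and 2.86 prior degrees of freedom), tested on simulated data. The study used a count test, which FPKM does not allow. Tables and plots used Python 3.11.15, numpy 2.4.6, pandas 2.3.3 and matplotlib 3.10.9. Replicate libraries correlated at r = 0.950 to 0.956 over tested unigenes.

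The unigenes named are the 5 members, other unigenes of their components, WRKY, VQ and MAP kinase lists (MAP kinases mainly by their extremes in the cold), and the 2 most similar unigenes of each member. Members and lists were chosen with earlier results of these data known. RefSeq gene names of maize matched 4 of the 4 locus identifiers in the annotations of the members. Alternatives covered the pseudocount, filters, scaling, separate fits, a replicate block, the variance model, thresholds, left-out libraries and summed unigenes.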

Additional observations from a re-analysis of the deposited data

Results flagged for a closer look

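The cold and the drought response differed for 3 of the 5 WRKY unigenes by the limma test of the difference itself, drought against cold, at an adjusted p under 0.05. At that threshold 5517 of the 38768 tested unigenes were lower in the drought than in the cold and 9246 were higher, so such a difference was common. The log2 difference was -1.72 for c38115_g1 (adjusted p = 0.000816), -0.99 for c56800_g1 (adjusted p = 0.00527) and -0.84 for c63357_g2 (adjusted p = 0.0165), and both drought libraries were below both cold libraries each time. For c63357_g2 the adjusted p stayed under 0.05 in 12 of 17 settings, among them the threshold settings, which kept the main fit. It rose above 0.05 on leaving out any 1 cold or drought library. c56800_g1 was picked out in this way and c56800_g2, from the same component, was not. Stress, its length and its medium cannot be told apart. The study chose the unigenes on these same cold libraries, so drought against cold is not independent of that choice.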

How the results depend on the processing

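Of 240 results for single WRKY unigenes under the alternative settings, 189 kept their direction and side of the DEG thresholds, 43 lost the call, 6 gained it and 2 reversed. Only results for the 4 DEGs in the cold and the 1 in the drought could lose a call, so most of the 189 had none to lose. The settings with a fold threshold of 1 or an adjusted p under 0.05 only loosened the call and could not lose it. The 4 DEGs in the cold became 5 under median-of-ratios scaling, 0 without a filter and 0 in a separate fit of 4 libraries, and leaving out 1 library gave 0 to 0. The 1 DEG in the drought became 0 without a filter, 0 when a unigene had to reach an FPKM of 1 in 2 libraries, 0 in a separate fit, 0 without the variance trend and 0 on leaving out any library, and 4 with a fold threshold of 1. With that threshold drought against cold had 1 DEG in place of 0. The fits that lost calls had fewer degrees of freedom or more unigenes tested, and fold changes against the control kept their sign. Both reversals concerned drought against cold of c56800_g2, at -0.16 under median-of-ratios scaling and -0.013 without cold replicate 1, with no call in either; leaving out single libraries gave a range of -0.013 to 0.179. The sums chosen after seeing the data gave -0.33 for c56800_g1 with c56800_g2 and -0.69 with c38115_g1 added, against 0.08 for c56800_g2 alone.

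Equal replicate numbers were not shown to pair samples, since their deviations correlated at -0.03, -0.01 and 0.04. With the replicate block there were 4 DEGs in the cold, 0 in the drought and 0 in drought against cold. With 2 libraries per group, leaving out either gives the value of the other, so for the share of c56800_g1 in its component this shows only the library values, 46.1% to 52.9% in the control, 44.7% to 49.9% in the cold and 29.4% to 30.0% in the drought. Precision is limited by 2 libraries per group, by pooled organs and by unknown read numbers per unigene.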
